A study of Mus musculus with 6 samples.

Results

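The genes described here encode the enzymes that hydroxylate collagen chains inside the cell and crosslink collagen outside it. They are the lysyl oxidase genes Lox, Loxl1, Loxl2, Loxl3 and Loxl4, the lysyl hydroxylase genes Plod1 and Plod2, and the genes of the catalytic alpha subunits of collagen prolyl 4-hydroxylase, P4ha1, P4ha2 and P4ha3. Members were taken by symbol from the rows of the deposited table to which the array platform's annotation gives exactly 1 gene symbol, with the brightest row standing for a gene. Of the 10 genes listed, 9 were found, each with 1 row, among 21506 genes tested; Loxl2 was not analysed here. The 10 genes were chosen with earlier results of these data known.

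Expression was measured in total RNA of left ventricular tissue on Affymetrix Mouse Gene 2.0 ST arrays, 1 per mouse, from 3 sickle and 3 control male mice; per the labels, experiments were done at 10 to 14 weeks of age. The sickle mice were homozygous for the allele Hbbtm2(HBG1,HBB*)Tow, in which human globin genes with a sickle beta-globin replace the mouse Hbb genes, and the control mice for Hbbtm3(HBG1,HBB)Tow, which carries a non-sickling human HBB. Both groups carried the human alpha-globin allele Hbatm1(HBA)Tow on a mixed B6;129 background, so the controls also lack normal mouse haemoglobin. The alleles are carried by every cell of the mouse, and the tissue was not sorted.

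Collagen chains are modified while they enter the endoplasmic reticulum. Prolyl 4-hydroxylase, a complex of a catalytic alpha subunit with the P4hb protein, hydroxylates proline residues, which lets the triple helix stay folded at body temperature; lysyl hydroxylases modify lysine residues, some of which later form crosslinks. After secretion, lysyl oxidases, copper enzymes, oxidise lysine and hydroxylysine residues of collagen and elastin so that neighbouring molecules join covalently. In the heart these enzymes are known for their part in fibrosis, where crosslinked collagen stiffens the wall. The hydroxylases need oxygen, iron and 2-oxoglutarate, and P4ha1, P4ha2, Plod2 and Lox are known targets of hypoxia-inducible factors in several cell types.

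The promoters of the 3 prolyl 4-hydroxylase alpha subunit genes are shown so that the members of 1 enzyme family can be read side by side; no link between their letters and expression was tested. RefSeq's promoter table (GRCm38.p6) held 5 of the 9 measured members: Loxl4, Plod1, P4ha1, P4ha2 and P4ha3. The 250 bases before the start of the 3 alpha subunit genes are shown 5′ to 3′ on the gene's strand, at chr10:59323046-59323295 (plus strand) for P4ha1, chr11:54100674-54100923 (plus strand) for P4ha2 and chr7:100285270-100285519 (plus strand) for P4ha3. Capitals mark the core of the hypoxia response element, ACGTG or GCGTG, read on either strand.
P4ha1: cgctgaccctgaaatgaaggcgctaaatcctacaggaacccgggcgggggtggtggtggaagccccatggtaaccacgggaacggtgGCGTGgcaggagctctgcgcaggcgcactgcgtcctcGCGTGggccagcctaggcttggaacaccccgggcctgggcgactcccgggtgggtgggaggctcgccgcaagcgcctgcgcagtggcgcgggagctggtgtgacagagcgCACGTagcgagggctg
P4ha2: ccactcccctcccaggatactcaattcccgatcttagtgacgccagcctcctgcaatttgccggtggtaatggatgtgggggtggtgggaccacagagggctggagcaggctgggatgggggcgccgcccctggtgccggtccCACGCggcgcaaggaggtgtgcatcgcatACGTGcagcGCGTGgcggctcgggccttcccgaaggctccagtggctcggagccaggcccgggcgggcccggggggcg
P4ha3: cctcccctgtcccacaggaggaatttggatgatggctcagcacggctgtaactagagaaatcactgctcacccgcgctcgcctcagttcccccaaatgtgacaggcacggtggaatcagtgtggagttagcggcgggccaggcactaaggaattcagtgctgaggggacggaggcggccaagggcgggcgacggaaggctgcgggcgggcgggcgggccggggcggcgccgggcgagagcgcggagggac

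The P4ha1 and P4ha2 windows each held 1 ACGTG and 2 GCGTG cores, and the P4ha3 window held neither. The Loxl4 and Plod1 windows held 1 GCGTG core each. Over the 32851 promoter windows of the same length, 16.6% held ACGTG and 28.2% held GCGTG on either strand. GC boxes (GGGCGG, in 32.7% of all windows) were found once in the P4ha1 window, at 2 places in the P4ha2 window and at 5 places in the P4ha3 window. The P4ha3 matches that begin 48, 44 and 40 bases before the start overlap each other in 1 repeat. The AP-1 motif TGANTCA (6.75% of all windows) and the Smad box CAGACA (17.1%) were in none of the 5 member windows, and the TATA box TATAAA (12.4%) was in the Plod1 window alone of the 5. The windows of the 3 subunit genes held 24, 21 and 23 CpG dinucleotides for P4ha1, P4ha2 and P4ha3, against a median of 6 over all windows. The Loxl4 and Plod1 windows held 27 and 16. Both hypoxia response cores contain a CpG, so the shares over all windows are not matched to these CpG-rich windows. These matches describe letters in a window and are not evidence of binding.

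The arrays did not contribute equally. Sickle replicate 3 had 340 of 21506 genes (1.58%) at more than 2-fold above its 2 group mates, where no other array had more than 25. The 10 cardiomyocyte markers had a summed intensity of 64060 to 70990 in sickle and 69100 to 70390 in control arrays, with the lowest value in sickle replicate 3, so muscle RNA was abundant in every sample. Control replicate 3 stood apart in 3 of 6 atrial markers: Sln had a log2 value of 8.08, Myl7 7.75 and Myl4 5.93 there, against at most 3.36, 4.78 and 5.55 in any other array. The other 3 atrial markers were not highest there: Bmp10 was 5.01 (5.33 in control replicate 2), Tbx5 was 8.55, the lowest of the controls, and Nppa was 12.74, below every sickle array. The labels give no scan date or batch. Values are on the log2 scale, on which a difference of 1 is 2-fold. The enzymes' results are given with and without sickle replicate 3.

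No member passed the test between sickle and control ventricles. Lox, P4ha3, Loxl3 and Loxl1 stood far above all other arrays in 1 sickle mouse, replicate 3, and lay near control values in the other 2 sickle mice, while P4ha1, P4ha2, Plod1 and Loxl4 were nearly flat over all 6 arrays. By limma, a linear model that shares variance information between genes, with Benjamini-Hochberg adjustment over all 21506 genes, 0 of 9 members had an adjusted p under 0.05, where 0.181% of all genes did (0.167% higher, 0.0139% lower), and 0 of 9 had an unadjusted p under 0.05, where 8.69% of all genes did. The adjusted p of the members ran from 0.722 to 0.954. In 0 of 9 members did the sickle and control values lie apart without overlap, against 16.0% of all genes. The median log2 difference was 0.16 over the members and -0.01 over all genes; without sickle replicate 3 it was -0.03 over the members and 0.00 over all genes. The members' median was 0.38 without sickle replicate 1, 0.25 without sickle replicate 2, 0.09 without control replicate 1 and 0.24 without control replicate 2.

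**Figure D1:**
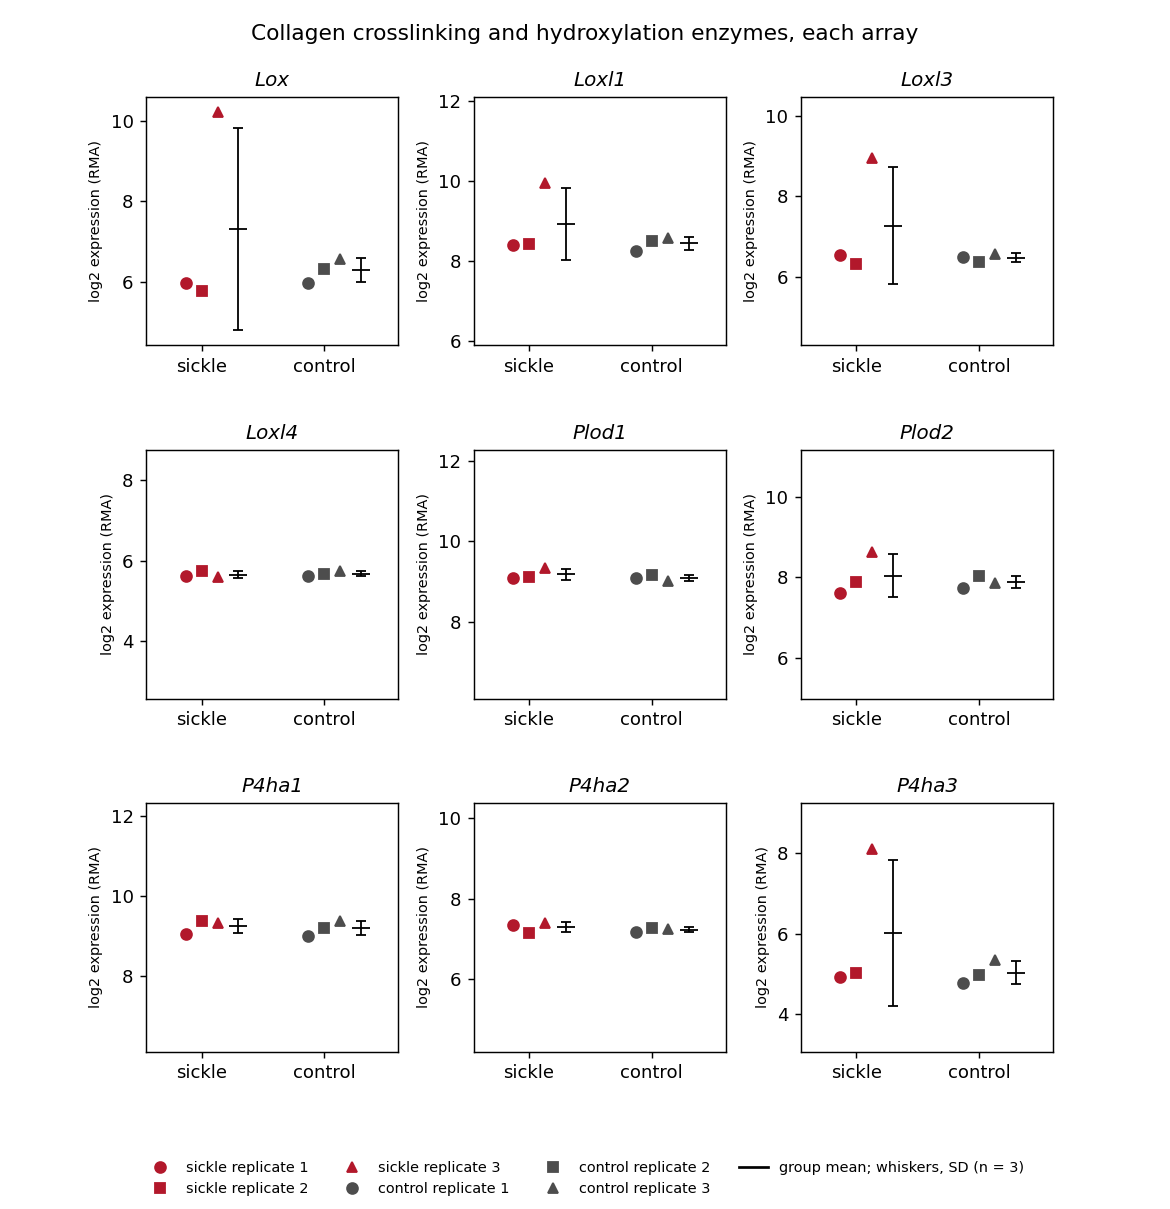
Log2 expression (RMA) of the 9 measured genes on each array, sickle at left and control at right of each panel; symbols mark the replicate, the bar and whiskers the group mean and SD (n = 3), and every vertical axis spans the same number of log2 units. Sickle replicate 3 stands far above the other 5 arrays for Lox, Loxl1, Loxl3 and P4ha3, and all arrays lie close together for Loxl4, Plod1, P4ha1 and P4ha2.

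Lox, the founding lysyl oxidase, acts on fibrillar collagens and elastin. It had log2 values of 5.97, 5.76 and 10.22 in sickle replicates 1, 2 and 3, against 5.97, 6.31 and 6.57 in the control arrays. One sickle mouse was thus far above every other mouse, and the other 2 sickle mice were below the lowest control, replicate 1 by less than 0.01. The means were 7.32 ± 2.52 in sickle and 6.28 ± 0.30 in control (SD, n = 3), a log2 difference of 1.03 ± 1.06 (SE; limma adjusted p = 0.792; 95% interval -1.45 to 3.51).

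Sickle replicate 3 exceeded the mean of its group mates by 4.36 on the log2 scale for Lox, 20.5-fold, which was the largest such difference among the 21506 genes; with 1 array this has no test. Without that array the sign turned: Lox differed by -0.42 ± 0.18 (limma adjusted p = 0.545), with a 95% interval from -0.85 to 0.01. In those 5 arrays it was the 1 member of 9 whose groups did not overlap, where 26.9% of all genes had no overlap.

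Loxl3, a lysyl oxidase needed in mice for palate and spine development, had 6.55, 6.32 and 8.96 in sickle arrays, against 6.48, 6.36 and 6.58 in control arrays. Replicates 1 and 2 of the sickle group fell among or just below the controls, and replicate 3 was 5.77-fold above their mean. The difference was 0.80 ± 0.62 (limma adjusted p = 0.722) over 6 arrays and -0.04 ± 0.12 without sickle replicate 3, with a 95% interval from -0.32 to 0.24.

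Loxl1, which is tied to elastic fibre upkeep, had 8.41, 8.42 and 9.95 in sickle arrays, against 8.26, 8.50 and 8.57 in control arrays. The first 2 sickle values lay inside the control range, and the third was 2.91-fold above their mean. The difference was 0.49 ± 0.39 (limma adjusted p = 0.731) over 6 arrays and -0.03 ± 0.12 without sickle replicate 3, with a 95% interval from -0.31 to 0.26.

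Loxl4, another lysyl oxidase, did not share this pattern. Its values were 5.61, 5.75 and 5.59 in sickle arrays, against 5.61, 5.66 and 5.75 in control arrays, so that sickle replicate 3 was the lowest of the 6. The difference was -0.02 ± 0.09 (limma adjusted p = 0.954; 95% interval -0.24 to 0.20). Loxl4 was thus flat on these arrays, while Lox, Loxl1 and Loxl3 each spanned over 1 on the log2 scale.

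Of the lysyl hydroxylases, Plod2 modifies lysines of the collagen telopeptides, the chain ends from which stable crosslinks form. Plod2 had 7.62, 7.87 and 8.64 in sickle arrays, against 7.73, 8.04 and 7.87 in control arrays. Sickle replicate 3 was again the highest of the 6, at 1.86-fold above its group mates, and sickle replicate 1 was the lowest. The difference was 0.16 ± 0.25 (limma adjusted p = 0.866) over 6 arrays and -0.14 ± 0.13 (limma adjusted p = 0.794) without sickle replicate 3, with a 95% interval from -0.45 to 0.18.

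Plod1, which modifies lysines within the triple helix, had 9.09, 9.11 and 9.34 in sickle arrays, against 9.08, 9.17 and 9.02 in control arrays. Its 6 values spanned 0.32, and sickle replicate 3 was 1.18-fold above its group mates. The difference was 0.09 ± 0.11 (limma adjusted p = 0.824) over 6 arrays and 0.01 ± 0.09 without sickle replicate 3, with a 95% interval from -0.21 to 0.23.

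The 3 alpha subunits of prolyl 4-hydroxylase differed among themselves. P4ha3, the isoform known in mouse and human for its low expression in most adult tissues, had 4.91, 5.02 and 8.11 in sickle arrays, against 4.78, 4.97 and 5.34 in control arrays. Only sickle replicate 3 lay outside the control range, 8.84-fold above its group mates, which placed P4ha3 at rank 7 of 21506 genes. The difference was 0.98 ± 0.77 (limma adjusted p = 0.727) over 6 arrays and -0.06 ± 0.17 without sickle replicate 3, with a 95% interval from -0.47 to 0.34.

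P4ha1, the main subunit in most cells, had 9.07, 9.38 and 9.33 in sickle arrays, against 9.02, 9.21 and 9.38 in control arrays. The groups covered nearly the same range, and sickle replicate 3 was inside that of the controls. The difference was 0.05 ± 0.13 (limma adjusted p = 0.921) over 6 arrays and 0.02 ± 0.15 without sickle replicate 3. P4ha2, the second isoform, had 7.34, 7.14 and 7.39 in sickle arrays, against 7.16, 7.27 and 7.25 in control arrays, with a difference of 0.06 ± 0.10 (limma adjusted p = 0.876) over 6 arrays and 0.01 ± 0.10 without sickle replicate 3.

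**Figure D2:**
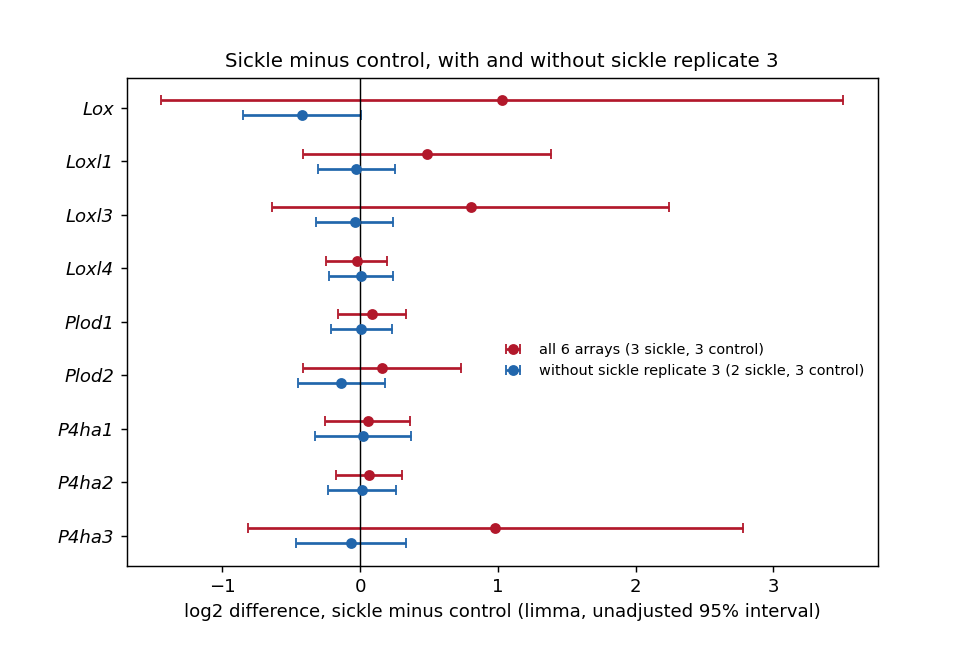
Log2 difference, sickle minus control, of each gene with its unadjusted 95% interval from limma, over all 6 arrays (red) and without sickle replicate 3 (blue). Without that array the differences run from -0.42 for Lox to 0.02 for P4ha1, and every interval includes 0.

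Without sickle replicate 3, 0 of 9 members had an adjusted p under 0.05 (0.0976% of all genes) and 0 had an unadjusted p under 0.05 (9.20% of all genes); the adjusted p ran from 0.545 to 0.990. The 95% intervals of these 2 sickle against 3 control arrays reached from -0.85, for Lox, to 0.37, for P4ha1. The exact two-sided permutation test of 3 against 3 arrays, which allows no p below 0.1, gave values from 0.4 to 1 for the 9 genes.

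Ranked among all genes by the excess of sickle replicate 3 over its group mates, the members were widely spread. Lox ranked first, P4ha3 at 7, Loxl3 at 21 and Loxl1 at 85 of 21506 genes, Plod2 at 454, and Plod1 at 3957. P4ha2 ranked at 5588, P4ha1 at 6857 and Loxl4, which was below its group mates in that array, at 12902. Thus 4 of 9 members were over 2-fold above the other 2 sickle arrays, where 1.58% of all genes were, and the array was the highest of the 6 for 7 of 9 members, where it was for 23.8% of all genes. In control replicate 3, 6 of 9 members had the highest of the 3 control values, among them Lox, Loxl1, Loxl3 and P4ha3, where 33.2% of all genes did. Without that control the differences were 1.17 for Lox and 1.14 for P4ha3.

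**Figure D3:**
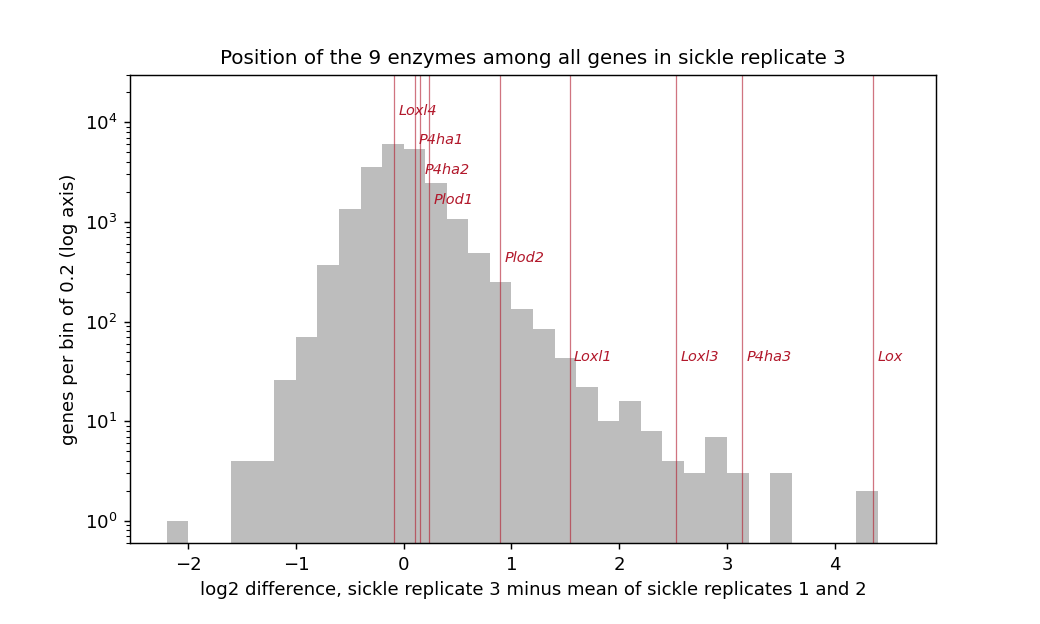
Histogram over 21506 genes (log vertical axis) of the log2 value in sickle replicate 3 minus the mean of sickle replicates 1 and 2; red lines mark the 9 enzymes. Lox lies at the right edge at 4.36, followed by P4ha3 at 3.14, Loxl3 at 2.53 and Loxl1 at 1.54, while Loxl4, P4ha1, P4ha2 and Plod1 lie between -0.09 and 0.24.

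The members fell into groups by how closely their profiles ran, taken as the root mean square difference of centred log2 values over the 6 arrays. Loxl3 and P4ha3 lay 0.28 apart and Lox and P4ha3 0.42 apart, against 1.51 between Lox and P4ha1. Plod1 and P4ha2 were 0.08 apart and Loxl4 and P4ha1 0.11 apart, all nearly flat. With the same measure over all genes, the profiles closest to Lox were those of Ltbp2, a latent TGF-beta binding protein of elastic fibres (0.31), Col12a1, a fibril-associated collagen (0.35), and Sprr1a, a small proline-rich protein (0.39).

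Closest to P4ha3 were Sfrp2, a secreted Wnt modulator (0.09), Gpnmb, a glycoprotein of macrophages (0.11), and Ltbp2 (0.12). Closest to Loxl3 were the fibrillar collagen gene Col5a2 (0.09), Itgbl1 (0.12) and Slamf7, a receptor of immune cells (0.14). Closest to Loxl1 were Csrp2, a LIM-domain protein of smooth muscle (0.04), Tmem45a (0.04) and the lectin gene Lgals3 (0.05). Closest to Plod2 were Enc1 (0.03), the basement membrane gene Nid1 (0.05) and Ifi213 (0.05). All of these profiles were led by sickle replicate 3, whose values exceeded those of the other 5 arrays, so the likeness rests on 1 mouse.

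The other genes of the pathway were taken from 8 lists with 69 genes, of which 63 were measured. By limma, 0 of 63 passed over all genes in either direction, with or without sickle replicate 3; 10 had an unadjusted p under 0.05 in each fit, where 8.69% of all genes did over 6 arrays and 9.20% without sickle replicate 3. Groups did not overlap in 16 of 63 genes (25.4%), against 16.0% of all genes. The median log2 difference was 0.22 over 6 arrays and 0.05 without sickle replicate 3.

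Among 9 other collagen-modifying enzymes of the endoplasmic reticulum, 0 passed, 7 had positive differences, and the list's median was 0.14 (-0.01 without sickle replicate 3). P4hb, the shared beta subunit of prolyl 4-hydroxylase and a disulphide isomerase, had 9.86, 9.77 and 10.24 in sickle arrays, against 9.69, 9.74 and 9.78 in control arrays (difference 0.22 ± 0.13, limma adjusted p = 0.661). P3h2, a prolyl 3-hydroxylase, differed by -0.07 ± 0.35. P3h4, a non-catalytic partner of lysyl hydroxylase 1, had 7.38, 7.11 and 7.26 in sickle arrays, against 7.64, 7.77 and 7.54 in control arrays. All 3 sickle values of P3h4 were below every control, by -0.40 ± 0.11, and the difference was -0.41 without sickle replicate 3 (limma adjusted p = 0.424 and 0.429).

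Of 9 chaperones and export factors of collagen, 0 passed, with a median of 0.03. Tmem38b, a potassium channel of the endoplasmic reticulum that collagen-making cells need for calcium release, had 7.36, 7.36 and 7.74 in sickle arrays, against 7.82, 7.76 and 7.97 in control arrays. Its sickle values were below every control, with a difference of -0.36 ± 0.13 (limma adjusted p = 0.534) over 6 arrays and -0.49 ± 0.10 (limma adjusted p = 0.258) without sickle replicate 3. Sec24d, of the vesicle coat that carries procollagen, differed by 0.26 ± 0.11. Of 7 procollagen proteinases and enhancers, 0 passed and 7 had positive differences, with a median of 0.27 (0.15 without sickle replicate 3). Bmp1, which trims procollagen and also activates the lysyl oxidase precursor, had 7.71, 7.91 and 8.75 in sickle arrays, against 7.56, 7.67 and 7.75 in control arrays (0.46 ± 0.25). Tll1, a related proteinase, differed by 0.35 ± 0.17 and Pcolce2, an enhancer of these proteinases, by 0.36 ± 0.16.

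The substrates of the lysyl oxidases followed the same array. Of 8 collagen and elastin genes, 0 passed; the list's median difference was 0.78 over 6 arrays and 0.04 without sickle replicate 3, and 6 of 8 were over 2-fold above their group mates in sickle replicate 3. Col3a1, a fibrillar collagen, had 8.82, 8.97 and 11.63 in sickle arrays, against 8.75, 8.69 and 8.92 in control arrays, and Col1a2, of type I collagen, was 2.61 above its group mates in sickle replicate 3 on the log2 scale. Col5a1 was 1.82 above them, and the basement membrane collagen gene Col4a1 0.82. Lox, at 4.36, ranked first of all genes on this measure, so it was above these 8 genes by that ranking alone.

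Of 9 binding partners and fibril regulators, 0 passed, and 7 were over 2-fold above their group mates in sickle replicate 3. Postn, the matricellular protein periostin that helps Bmp1 act on the Lox precursor, had 9.28, 9.64 and 12.40 in sickle arrays, against 8.25, 8.49 and 9.02 in control arrays. All sickle values were above every control. The difference in means was 1.85 ± 0.74 over 6 arrays and 0.87 ± 0.23 without sickle replicate 3 (limma adjusted p = 0.564 and 0.369). Lum, the collagen-binding proteoglycan lumican, differed by 0.79 ± 0.28 over 6 arrays and 0.42 ± 0.10 without sickle replicate 3 (limma adjusted p = 0.522 and 0.303). Postn and Lum were therefore above control in sickle replicates 1 and 2, in which Lox was not.

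Transglutaminases, which crosslink matrix proteins by another reaction, gave 0 of 3 past the test: Tgm2 differed by 0.24 ± 0.17, F13a1 by 0.25 ± 0.18 and Tgm1 by 0.05 ± 0.11. Of 7 TGF-beta signalling genes, 0 passed and the median was 0.42 (0.05 without sickle replicate 3). The ligand gene Tgfb1 had 8.12, 8.23 and 8.47 in sickle arrays, against 7.94, 7.90 and 7.74 in control arrays, a difference of 0.42 ± 0.12 (limma adjusted p = 0.437) over 6 arrays and 0.32 without sickle replicate 3. Smad7, a feedback inhibitor of that pathway, differed by 0.62 ± 0.18 over 6 arrays and 0.40 without sickle replicate 3. The sickle values of both were above every control in all 3 mice.

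Of 11 hypoxia target genes, 0 passed, and the medians relative to the control mean were 0.06, 0.15 and 0.14 in sickle replicates 1, 2 and 3. Egln3, an oxygen-sensing prolyl hydroxylase that acts on hypoxia-inducible factor and not on collagen, had 10.997, 11.288 and 10.800 in sickle arrays, against 10.648, 10.286 and 10.200 in control arrays (0.65 ± 0.17, limma adjusted p = 0.386). Adm differed by 0.31 ± 0.11 and Bnip3 by -0.35 ± 0.17. None of these 11 genes was over 2-fold above its group mates in sickle replicate 3. Of the members named above as targets of hypoxia-inducible factors, Lox was, and Plod2, P4ha1 and P4ha2 were not. A part of hypoxia in the members' values was not tested.

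Many myofibroblast, fibroblast and macrophage markers were also high in sickle replicate 3. Relative to the control mean, 8 myofibroblast markers had a median of 0.17, 0.04 and 1.79 in sickle replicates 1, 2 and 3, and 6 of the 8 were over 2-fold above their group mates in that array. Their summed intensity was 2204 to 4705 in sickle and 1755 to 2074 in control arrays. For 8 fibroblast markers the medians were -0.01, 0.08 and 0.90, and the sums 5258 to 9038 in sickle and 5352 to 5690 in control arrays. Of these 8 markers, 3 were over 2-fold above their group mates in that array, while Gsn was below every control in all 3 sickle arrays. For 10 macrophage and monocyte markers the medians were 0.06, 0.17 and 1.33, with sums of 2488 to 5877 in sickle and 2216 to 2548 in control arrays. In sickle replicate 3, 7 of the 10 were over 2-fold above their group mates. In whole tissue, more cells of a type and more RNA per cell cannot be told apart, and the part of these cell types in the members' values was not tested.

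Other marker lists, except the red-cell markers, had smaller median shifts in that array. Relative to the control mean, the median in sickle replicate 3 was 0.01 for 8 endothelial, 0.30 for 8 smooth muscle and pericyte, and -0.17 for 10 cardiomyocyte markers. It was -0.08 for 8 valve, cartilage and tendon markers, which did not move together: Fmod, Sox9 and Scx were above their group mates in that array by 1.03, 0.97 and 0.78, Acan by 0.00, and Col2a1, Tnmd, Mkx and Chad differed from them by -0.22, -0.29, -0.40 and -0.73. It was -0.03 for 6 epicardial and mesothelial markers, -0.18 for 7 skeletal muscle and -0.44 for 6 atrial markers. Of the atrial markers, Nppa, also a gene of the stressed ventricle, had 12.97, 13.18 and 13.66 in sickle arrays, against 12.63, 12.72 and 12.74 in control arrays. Red-cell markers, by contrast, were higher in all 3 sickle mice: 6 of 8 rose (3 of 8 without sickle replicate 3), with medians of 1.55, 2.08 and 1.67, and lymphocyte markers had medians of 0.54, 0.31 and 0.51, with 1 of 7 past the test (0 without sickle replicate 3).

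**Figure D4:**
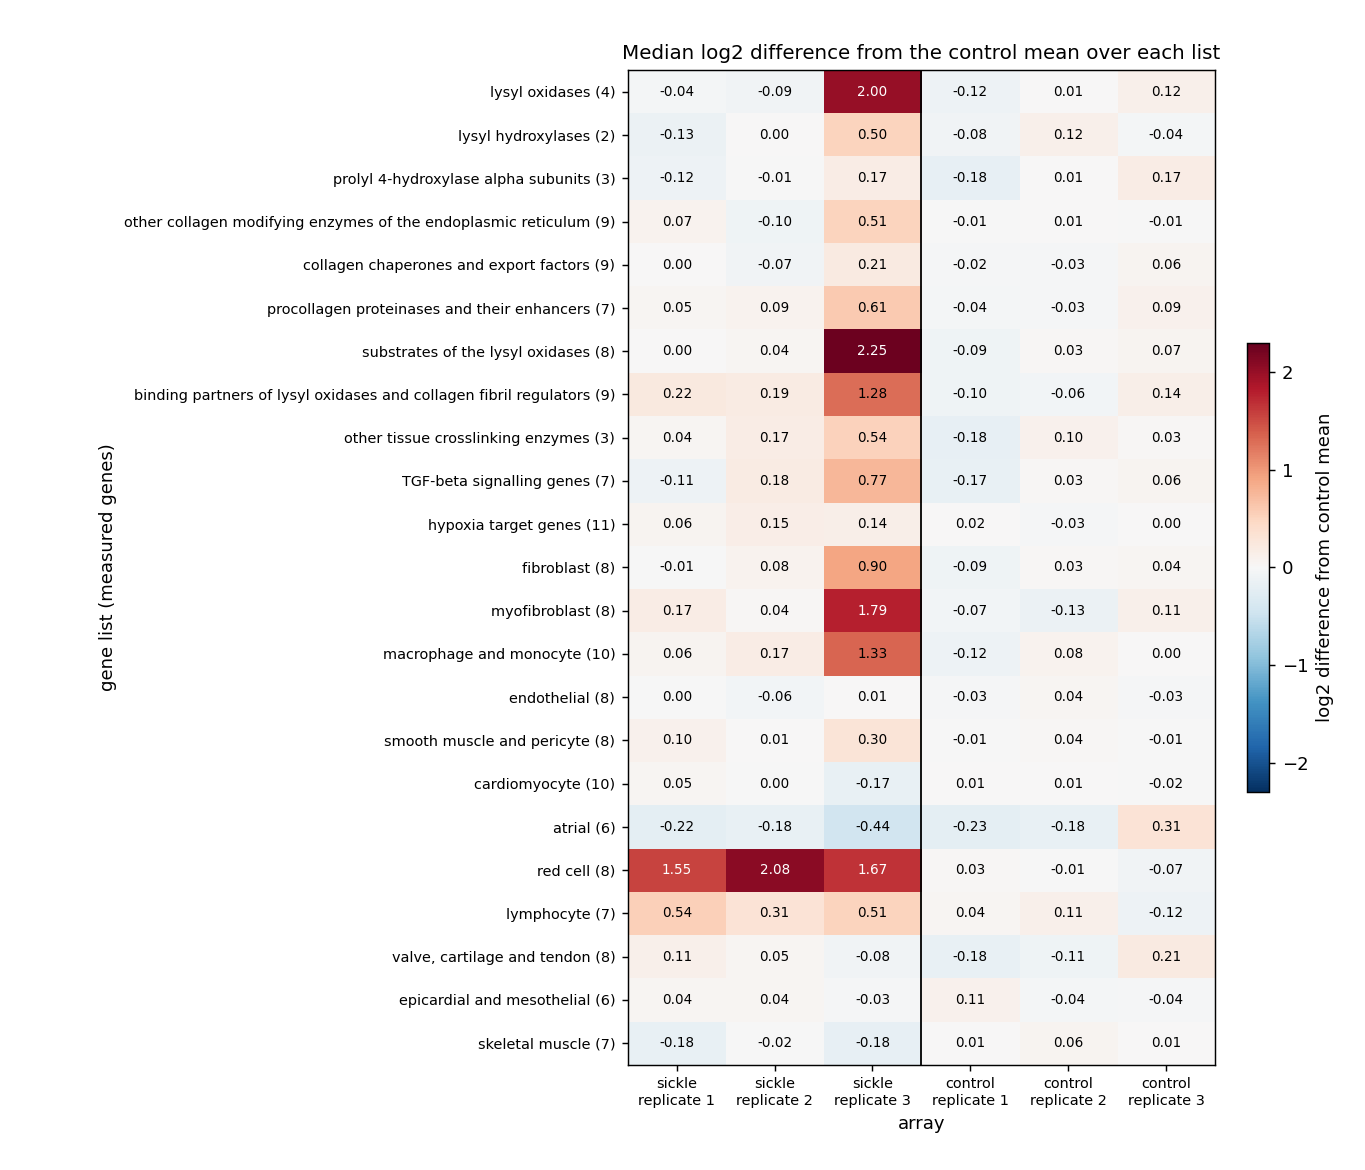
Median log2 difference from the control mean over the measured genes of each list (number in brackets), for the 3 sickle arrays at left and the 3 control arrays at right. The medians of the lysyl oxidases (2.00), their substrates (2.25), and myofibroblast (1.79) and macrophage (1.33) markers are high in sickle replicate 3 alone. Those of red-cell markers are high in all 3 sickle arrays. Among the lysyl oxidases, Loxl4 was not raised in sickle replicate 3 (-0.08).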

How the data were processed

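The deposited values are log2 intensities, a scale judged from their range. Per the submitters' processing notes they come from RMA, which corrects background, normalises quantiles between arrays and summarises probes; its version and settings and a genome build are not given in the labels. Of 25293 rows, the platform annotation gave 1 gene symbol to 22030, several to 685 and none to 2578. Rows with 1 symbol entered, the brightest per gene, which left 21506 genes with no filter on dim ones.

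Limma 3.58.1 in R 4.3.3 (lmFit, eBayes, two-sided, Benjamini-Hochberg over all genes at 0.05) was run with group as the only term, on 4 residual and 3.61 prior degrees of freedom; differences are sickle minus control with moderated standard errors. It was also run on simulated data, drawn independently for each gene and array, with no array standing apart. Those data could not show how the fit handles an array like sickle replicate 3. Groups and replicate numbers come from the sample titles. Arrays give no read depth, and their number limits the precision; the p-values measure the spread between these mice. The members, the gene lists and the naming rule were chosen with earlier results of these data known. All 9 measured members are described. Each pathway list adds the members past the test or, where none passed, up to 2 with the smallest p with and up to 2 without sickle replicate 3. For members spanning over 1 on the log2 scale, the 3 genes with the closest profile are named, leaving out predicted genes. The atrial and the valve, cartilage and tendon markers are named singly after their values were seen. Alternatives were leaving out arrays, a replicate block, weighted arrays, an intensity trend in the prior variance, removal of dim genes, median centring, a second quantile normalisation, and averaging the rows of a gene. Figures were drawn with matplotlib 3.10.9.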

Additional observations from a re-analysis of the deposited data

How the results depend on the processing

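Of 9 members, 0 passed the adjustment under any of 14 alternatives. Directions were less stable. Leaving out each array in turn, the differences ran from -0.42 to 1.81 for Lox, -0.0257 to 0.75 for Loxl1, -0.0398 to 1.28 for Loxl3, -0.0644 to 1.54 for P4ha3, -0.14 to 0.38 for Plod2, -0.0722 to 0.0140 for Loxl4 and -0.0372 to 0.15 for P4ha1, all of which changed sign. Plod1 (0.01 to 0.13) and P4ha2 (0.01 to 0.14) kept theirs in these fits. With array weights, Plod2 was -0.0400 and the members' median 0.0432. Without sickle replicate 3 and control replicate 3, chosen after seeing the data, Lox was -0.28, Loxl4 0.0438, Plod1 -0.0249 and Plod2 -0.14, and the median 0.0265. The count of members without overlap was 0 or 1 with 1 array left out, and 1 without both arrays. The count of genes past the adjustment was 4 to 36 with 1 array left out, against 39 over 6 arrays: 21 without sickle replicate 2 or 3, and 13, 5 and 4 without control replicates 1, 2 and 3. It was 0 without both arrays (1785 at an unadjusted p under 0.05). With the replicate number as a block it was 12; deviations of same-numbered arrays correlated at 0.11, -0.05 and 0.05, and only sickle replicate 1 correlated best with its own number. The cause of these shifts was not tested. Fits with arrays left out also hold fewer arrays, while the fit with the replicate block keeps all 6. Signal over background was not given, so dim genes could not be judged singly.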
